A study of Mus musculus with 2 samples.

Results

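In nuclei isolated from the vagus nerve ganglia of mice, 1004 of 8714 nuclei carried the mRNA of myelinating Schwann cells above a fixed limit, and 207 of these held at most 1 count of a second set of genes, of which the other 797 held 2 or more. The 207 nuclei were chosen from their own counts of unique molecular identifiers (UMIs, the number of captured RNA molecules). A nucleus entered when Prx, Ncmap, Dusp15, Cldn19, Ugt8a, Pllp, Mag, Drp2 and Fam178b together gave at least 4 UMIs and at least 15 UMIs per 10000 (the first sum), while Adamtsl1, Erbb4, Pmp2, Shc4 and Ankfn1 together gave at most 1 UMI (the second sum). These 207 are called the Adamtsl1-low nuclei here, the 797 with 2 or more UMIs of the second sum are called the Adamtsl1 and Erbb4 nuclei, and the remaining 7710 failed the first sum.

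The nuclei came from C57BL/6J mice of the genotype Rosa26-floxed-STOP-Cas9-eGFP, bought at 8 to 9 weeks of age, kept on standard chow and injected in the liver with AAVrg-Cre, a virus that is taken up by nerve endings and carries Cre recombinase. All mice of both groups had this allele and this virus. Ganglia were taken 4 weeks after the injection, 14 from 7 females and 16 from 8 males, and pooled by sex into 1 library each, so that sex, pool and library cannot be told apart and no comparison between the sexes has a replicate. With 1 library per sex no test was possible; intervals are exact 95% intervals that cover counting error only, and p-values were not computed.

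The female library held 3791 nuclei and 17435300 UMIs, with a median of 2381 UMIs per nucleus, and the male library held 4923 nuclei and 27529730 UMIs, with a median of 2658. Of the barcodes, 8 occurred in both libraries and none of them marked an Adamtsl1-low nucleus. As a check of the sex labels, Xist, the RNA that silences an X chromosome, was counted 99 times in the female Adamtsl1-low nuclei and 0 times in the male. The Y-linked genes Ddx3y, Uty, Eif2s3y and Kdm5d had 28, 22, 20 and 8 UMIs in the male Adamtsl1-low nuclei and 0 in the female.

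Myelinating Schwann cells wrap a single large axon of a peripheral nerve in a compacted membrane rich in galactolipids, and they lie on a basal lamina that they help to make. Periaxin and dystrophin-related protein 2 (Prx, Drp2) tie the outer membrane to that lamina, while claudin 19 and myelin-associated glycoprotein (Cldn19, Mag) sit in the uncompacted membrane and at the axon surface. Neuregulin from the axon acts on these cells through receptors of the ErbB family. Nuclei prepared from a lysed ganglion also carry some RNA set free from other cells, above all from the large sensory neurons.

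The Adamtsl1-low nuclei made up 2.35% of the female library (89 nuclei, 95% Clopper-Pearson interval 1.89 to 2.88%) and 2.40% of the male (118 nuclei, 1.99 to 2.86%). They were shallow. Their median depth was 1645 UMIs for the female and 1894.5 for the male members, against 2303.5 and 2386 in the Adamtsl1 and Erbb4 nuclei and 2425.5 and 2753 in the nuclei failing the first sum. The deepest female member held 5941 UMIs and the deepest male member 16344, of a male total of 263087; the female members held 165552 UMIs in all.

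How often a nucleus that passed the first sum fell on the low side of the second moved with its depth. In the female library 28.4% of the passing nuclei of up to 2000 UMIs were Adamtsl1-low (59 of 208), against 12.1% of those over 2000 (30 of 247) and 3.23% of those over 4000 (2 of 62). In the male library the shares were 32.7% (67 of 205), 14.8% (51 of 344) and 6.25% (5 of 80). The limit of the second sum is a count and not a rate, so that a low level and a shallow nucleus cannot be told apart by the rule, and the 207 may not be a cell state of their own. A member with 1 UMI reached up to 9.79 per 10000 in the female library, whereas a female nucleus of 9340 UMIs with a second sum of 2 was not a member. The second sum also had no gap at its limit. Female nuclei with 0, 1, 2 and 3 UMIs numbered 48, 41, 57 and 30, and male nuclei 47, 71, 71 and 60. When each nucleus was first thinned at random to 1000 UMIs and the rule then applied, 2.47% of female and 2.19% of male nuclei were members. Thinning lowers both sums, and how many of these were among the 207 is not given, so the like shares do not show that the same nuclei remained.

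**Figure D1:**
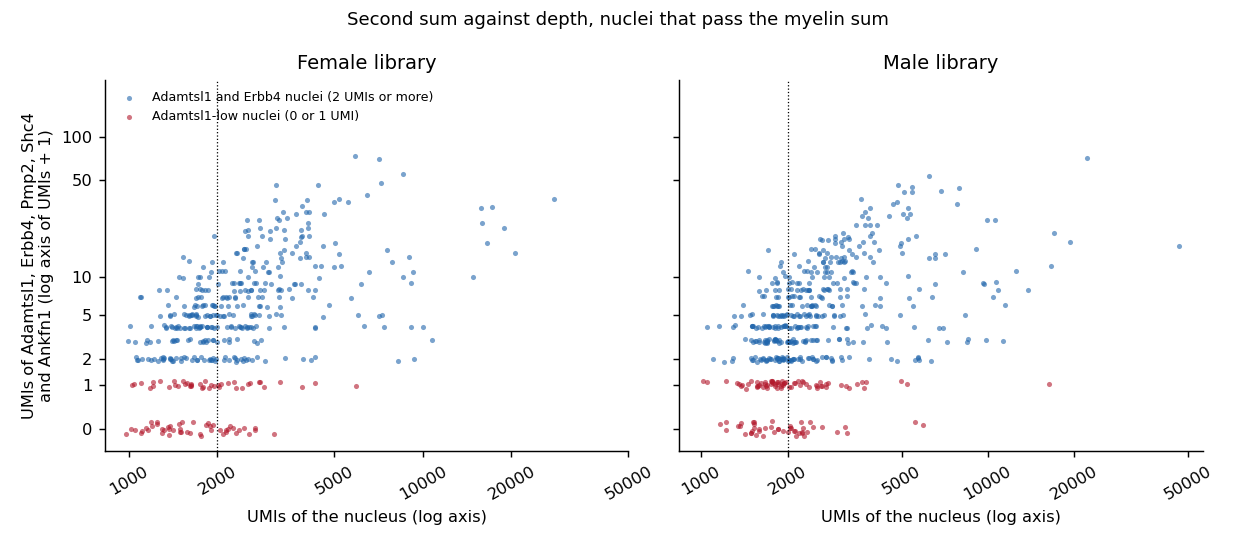
Each point is a nucleus that passed the myelin sum, with its UMIs on the horizontal log axis and its summed UMIs of Adamtsl1, Erbb4, Pmp2, Shc4 and Ankfn1 on the vertical axis (log axis of UMIs plus 1; points are spread slightly in height). The Adamtsl1-low nuclei (red) lie at 0 and 1, run on into the Adamtsl1 and Erbb4 nuclei (blue) without a gap, and thin out to the right of the dotted line at 2000 UMIs.

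On the other side of the limit, the values changed by degrees. Prkca, which encodes a protein kinase C and was no part of the rule, stood at 10.7 UMIs per 10000 in female nuclei with a second sum of 0 and at 11.6 in those with 1, then at 9.89 at 2, 18.2 at 3, 22.7 at 4 to 9 and 37.2 at 10 or more. The male values ran 5.86, 9.23, 11.8, 11.6, 20.3 and 33.2 in the same order. Slit2, an axon guidance gene also outside the rule, ran from 1.35 to 8.20 and from 0.925 to 8.99. Over the same span the median depth went from 1543 to 3364.5 UMIs in the female library and from 1852 to 3348.5 in the male, and the part of depth in these differences was not tested. Just under the first limit, nuclei with 3 UMIs of the myelin sum held 7.94 UMIs per 10000 of Prkca among females and 6.69 among males, and members with exactly 4 held 14.7 and 7.65. The neuronal mRNA described further on stood at 61.8 and 130 in the former and at 56.1 and 126 in the latter nuclei.

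The 14 genes of the rule chose the nuclei, so that no call on them is read as a result. The totals of called genes given further on still hold some of them. Against the nuclei failing the first sum these were 5 genes of the first sum, all higher, and 1 higher and 2 lower of the second. Prx had 133 UMIs in the female members, a level of 8.03 per 10000 (6.73 to 9.52), and 139 UMIs in the male, a level of 5.28 (4.44 to 6.24), against levels of 0.338 and 0.256 in the nuclei failing the first sum. Ugt8a, the enzyme that makes the galactosylceramide of myelin, stood at 6.16 and 5.09 in the members, against 0.245 and 0.207. Dusp15, a phosphatase gene, stood at 5.80 and 5.13, Drp2 at 4.47 and 3.38, Ncmap at 3.02 and 1.71, Fam178b at 2.23 and 2.24, Pllp (plasmolipin) at 1.69 and 2.28, Mag at 1.63 and 0.912, and Cldn19 at 1.51 and 1.67, female before male. No member had to express all of them, and Prx, the most frequent in each library, had a UMI in 63 of 89 female and 81 of 118 male members.

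Of the second sum, Adamtsl1, which encodes a secreted protein of the extracellular matrix, had 4 UMIs in the members of each library. Erbb4, a neuregulin receptor, had 4 and 2, Shc4, an adaptor protein of receptor tyrosine kinases, had 21 and 28, and Ankfn1 had 12 and 37. Pmp2, a fatty-acid binding protein of myelin, had 0 UMIs in each library, which allows levels of up to 0.181 per 10000 in female and 0.114 in male members. The Adamtsl1 and Erbb4 nuclei held 0.486 and 0.659 of Pmp2, so that even there it was a rare RNA. In the nuclei failing the first sum, Adamtsl1 stood at 0.737 and 0.495 and Erbb4 at 1.22 and 0.208, levels above those of the members. Shc4 and Ankfn1 were higher in the members than in the nuclei failing the first sum, with log2 ratios of 1.54 and 1.83 for Shc4 and of 0.60 and 2.01 for Ankfn1. Prx lies on mouse chromosome 7 at 27499324 to 27520214 (plus strand), Ncmap on chromosome 4 at 135369576 to 135398227 (minus strand) and Ugt8a on chromosome 3 at 125865271 to 125938619 (minus strand); Adamtsl1 lies on chromosome 4 at 85514172 to 86428385 (plus strand) and Erbb4 on chromosome 1 at 68032186 to 69108059 (minus strand), all in GRCm38 (mm10) with GENCODE vM21 gene bounds.

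The label of a myelinating Schwann cell was checked on genes outside the rule, with Pmp22 in nearly every member and Mal, another compact myelin gene, in 40 of 89 female and 53 of 118 male members. Pmp22, which encodes a myelin protein sensitive to gene dosage (chromosome 11, 63128982 to 63159547, plus strand), gave 385 UMIs in the 89 female members, 23.3 per 10000 (21.0 to 25.7), and 594 in the 118 male members, 22.6 (20.8 to 24.5). The nuclei failing the first sum held 2.87 and 3.57. At least 1 UMI of Pmp22 occurred in 95.5% of female and 94.9% of male members, against 40.3% and 64.8% of macrophage-like nuclei, which should lack myelin and had median depths of 1814 and 1895 UMIs. After thinning each nucleus to 1000 UMIs, the shares were 87.5% and 89.8% in the members and 20.2% and 37.1% in the macrophage-like nuclei, with 1 female member too shallow to thin. Single female members ranged from 0 to 88.0 UMIs of Pmp22 per 10000 with a median of 19.6, and male members from 0 to 71.9 with a median of 22.4; 4 female and 6 male members held none.

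All 6 compact myelin genes outside the rule were at least 2-fold higher in the members than in the nuclei failing the first sum in each library, where 4.68% of 6372 genes with enough UMIs were higher in this way and 9.18% were lower. Mbp, the gene of myelin basic protein, gave 283 UMIs in female and 318 in male members, 17.1 (15.2 to 19.2) and 12.1 (10.8 to 13.5) per 10000, against 1.77 and 1.35, so that it was 9.65- and 8.93-fold higher. Its level in single members ran from 0 to 60.4 with a median of 15.5 in the female library, and from 0 to 83.5 with a median of 10.8 in the male. Cd9 stood at 13.7 and 17.8 against 3.62 and 6.55, and Mal at 3.02 and 2.66 against 0.418 and 0.337. The median log2 ratio of the 6 genes was 2.94 for the female and 2.84 for the male library, beside 0.05 and 0.05 over all 6372 genes. These sums weight deep nuclei most, and the nuclei failing the first sum reached 124136 UMIs. Among nuclei of up to 2000 UMIs the median over the 6 genes of each gene's mean log2 ratio in both libraries was 1.998 instead of 2.88.

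Genes of oligodendrocytes, the myelin-forming cells of the brain, were at or near 0. Of 11 such genes, 6 had no UMI in the female and 8 none in the male members, among them Olig1, Olig2, Opalin and Myrf in both. Mog had 3 UMIs, all in 1 female nucleus. Genes of dividing cells summed to 7 UMIs in the female members, all of Pcna, and to 10 in the male, 2 of them of Mki67. Of 5 tested genes of the repair Schwann cell, the form taken after nerve injury, none was called against the nuclei failing the first sum, with a median log2 ratio of -0.01 and 0.14. Of 9 tested genes of Remak Schwann cells, which ensheath thin axons without myelin, Apod was higher and Csmd1 lower, with a median of -0.25 and -0.58. Against the Adamtsl1 and Erbb4 nuclei no gene of either list was called. The medians there were 0.56 and 0.28 for repair and 0.41 and 0.03 for Remak genes, beside 0.09 and 0.08 over all tested genes.

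Outside the rule, the 20 genes with the highest ratio over the nuclei failing the first sum, ranked by the library with the smaller change, held structural proteins and enzymes of myelin beside long noncoding RNAs. Fa2h, which hydroxylates the fatty acids of galactosylceramide (chromosome 8, 111345135 to 111393824, minus strand), stood first. It gave 66 UMIs in 46 of 89 female members and 62 in 50 of 118 male members, levels of 3.99 (3.08 to 5.07) and 2.36 (1.81 to 3.02) against 0.195 and 0.119. No nucleus gave more than 4 of these UMIs, and macrophage-like nuclei held 2 UMIs in each library. Arhgap19 followed at 4.29 and 2.39 against 0.207 and 0.154.

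Bcas1 stood at 4.17 and 2.13 against 0.302 and 0.178, and Mlip at 3.75 and 3.04 against 0.379 and 0.229. Sh3tc2, an endosomal protein whose loss causes a demyelinating neuropathy, stood at 1.93 and 1.22 against 0.201 and 0.136. Gldn, which encodes gliomedin, a ligand that gathers sodium channels at the node of Ranvier, stood at 2.30 and 2.01 against 0.206 and 0.155. Ctnna3, an alpha-catenin gene, was abundant at 39.6 and 25.9 against 4.84 and 3.36. Gfra1, a receptor for glial cell line-derived neurotrophic factor, stood at 9.73 and 5.74 against 1.11 and 0.837. Cryab, a small heat shock protein gene, stood at 5.01 and 5.28 against 0.659 and 0.696, and Art3 at 7.55 and 5.25 against 0.947 and 0.673. Also among the 20 were Mbp, Mal, Cfap100, Slc36a2, Sema3b and the noncoding A330069K06Rik, Gm16168 and 2310014F06Rik.

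The noncoding Gm16168 stood at 6.28 and 4.11 against 0.560 and 0.426. Another noncoding RNA, 2310014F06Rik (chromosome 7, 112612560 to 112680081, minus strand), overlaps Tead1 on the opposite strand, and Tead1 was also higher in the members, with log2 ratios of 1.36 and 1.70. A330069K06Rik (chromosome 3, 80054892 to 80213085, plus strand) has no protein-coding gene overlapping it and stood at 1.39 and 1.06 against 0.108 and 0.0569.

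**Figure D2:**
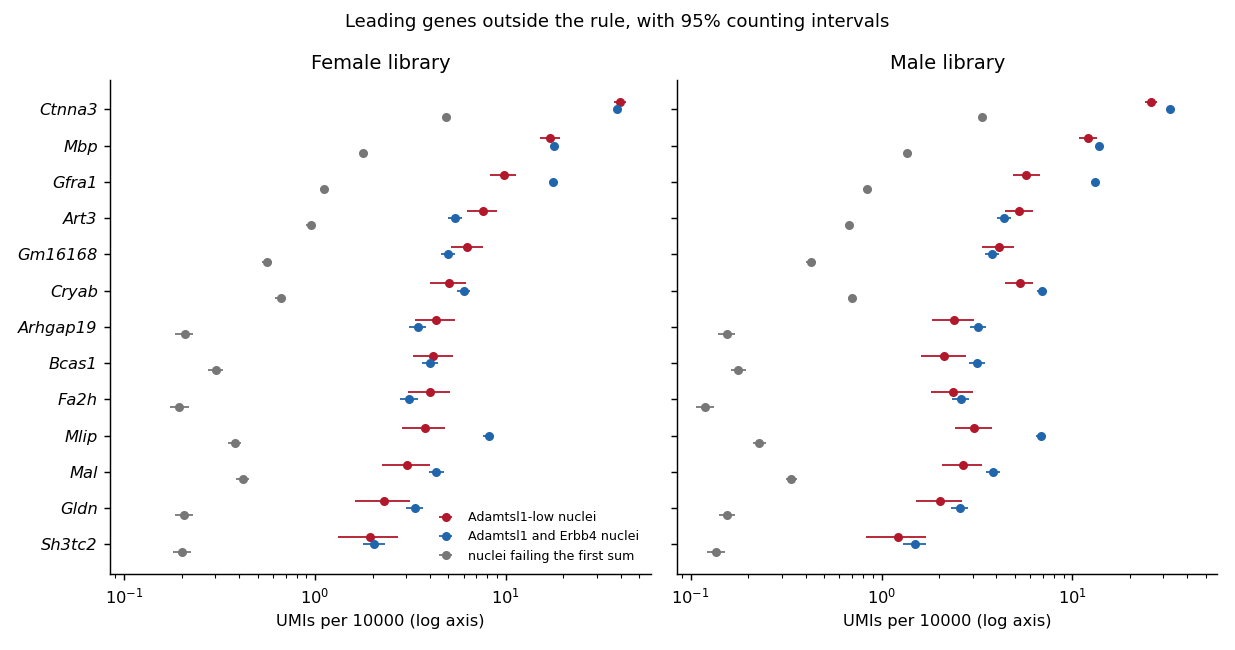
UMIs per 10000 (log axis) of 13 leading genes outside the rule in each library, in the Adamtsl1-low nuclei (red), the Adamtsl1 and Erbb4 nuclei (blue) and the nuclei failing the first sum (grey); bars are exact 95% Poisson intervals. Red and blue points stand right of the grey points for every gene shown, and for Gfra1 and Mlip the red point lies left of the blue in each library.

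The other gene groups of the sheath were counted without the genes of the rule, and their counts stand beside the 4.68% higher and 9.18% lower over all genes; in groups of this size a single called gene says little of the group. Of 5 tested genes of uncompacted myelin and paranodes, 3 were higher and none lower, namely Gjc3, a connexin, and the adhesion molecules Nfasc and Cadm4, and the median log2 ratio was 1.44 and 1.44. For Nfasc the log2 ratios were 2.05 for the female and 1.44 for the male library. Of 5 tested genes of the nodal microvilli, Gldn was the only one higher and none was lower. Among 16 tested genes of the basal lamina and its receptors, 6 were higher and none lower, with a median log2 ratio of 1.16 and 0.97. They were Dag1, the gene of dystroglycan, with ratios of 1.94 and 1.87, Utrn, the integrins Itga6 and Itgb4, the laminin Lamb1 and the proteoglycan Hspg2. Of 5 tested genes of metabolic support to the axon, Aspa and Ldhb were higher and none was lower, with a median of 0.41 and 0.41. In the group of cytoskeletal and adaptor genes, 5 of 13 were higher and 2 lower, with a median of 0.27 and 0.01. Cnp, a myelin phosphodiesterase gene, had log2 ratios of 2.997 and 2.55, Ndrg1, which underlies a hereditary neuropathy, of 2.60 and 2.39, while Ank2 and Epb41l3 were the lower ones.

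Of 17 tested genes of lipid synthesis outside the rule, Fa2h and Cers2, a ceramide synthase, were the 2 higher ones and none was lower; the median log2 ratio of the group was 0.43 and 0.28. The tested genes of cholesterol synthesis stayed under 2-fold in each library, with log2 ratios of 0.45 and 0.26 for Hmgcs1 and -0.01 and 0.36 for Sqle. Fasn, the fatty acid synthase, had 0.69 and 0.29.

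Of the transcription factors, Sox10, the factor that all Schwann cells need, was higher with log2 ratios of 2.47 and 2.11, as was Tead1, and the other 7 of 9 tested were not called in either direction. Egr2, the factor that switches on myelin genes, was too rare to be among the tested genes, with 8 UMIs in 6 female and 11 in 7 male members, levels of 0.483 (0.209 to 0.952) and 0.418 (0.209 to 0.748) against 0.0496 and 0.0375 in the nuclei failing the first sum. A further group held genes of axonal signalling, receptors and ligands alike. In it Erbb3, the neuregulin receptor of Schwann cells, stood at 1.75 and 1.25 against 0.353 and 0.306. Adgrg6, an adhesion receptor needed for myelination, stood at 1.51 and 1.52 against 0.555 and 0.489. With Lgi4 these were 3 of 9 tested genes that were higher, and Adam22 and Nrg1 were lower.

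Cntn5 and Kcnip1 stood among the 10 genes with the lowest ratio. Cntn5, a neuronal adhesion molecule, had 20 and 21 UMIs in the female and male members, 1.21 and 0.798 per 10000 against 16.0 and 18.2. Agbl4 had 4 and 8 UMIs, and Egfem1 3 and 6. Kcnip1, a potassium channel subunit, had none in either library and was at least 3.23-fold lower in the female and 3.60-fold lower in the male members than in the nuclei failing the first sum, taking 3 UMIs as the limit of a count of 0. Pdzrn4, Syt16, Gm45321 and 5730522E02Rik also had none in either library, while Nrg3os had 0 and 4 UMIs and 4930555F03Rik 0 and 1. Of 11 sensory neuron marker genes, 7 were lower, among them Scn9a and Scn10a, which encode sodium channels, and Piezo2, a mechanosensitive channel; the median log2 ratio was -2.04 and -1.25.

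Mitochondrial and ribosomal protein RNA, which reach a nuclear preparation from the cytoplasm, were higher in these nuclei than in those failing the first sum, but no gene of either list was called against the Adamtsl1 and Erbb4 nuclei. The 13 mitochondrial genes gave 272 UMIs per 10000 (264 to 280) in the female and 193 (188 to 199) in the male members, against 106 and 90.1 in the nuclei failing the first sum, and 8 of the 13 were higher in each library, with a median log2 ratio of 1.32 and 1.03. The gap was smaller among shallow nuclei. In those of up to 2000 UMIs, the members held 294 and 191 per 10000, the Adamtsl1 and Erbb4 nuclei 255 and 180, the nuclei failing the first sum 229 and 179, and the macrophage-like nuclei 215 and 185. Ribosomal protein genes were higher in 14 of 76 and lower in none, with a summed level of 198 and 230 against 96.0 and 125. Malat1, a nuclear RNA, went the other way at 489 and 455 against 628 and 663.

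Against the Adamtsl1 and Erbb4 nuclei, 34 of 6372 genes (0.534%) were at least 2-fold higher in the Adamtsl1-low nuclei in each library and 64 (1.0%) were lower, 4 of the lower genes being those of the rule. This balance turned under 5 alternatives. There were 134 higher and 61 lower genes with a second sum of at most 5 per 10000, 186 and 45 after thinning to 1000 UMIs, 44 and 28 with a first sum of at least 6 UMIs and 25 per 10000, 44 and 32 among nuclei over 2000 UMIs, and 1499 and 148 with no filter on low counts. The numbers of genes tested under these alternatives are not given, so the counts are not set beside the shares of 6372. None of the 6 compact myelin genes outside the rule was called, and their median log2 ratio was -0.15 for the female and -0.36 for the male library beside 0.09 and 0.08 for all genes. Both classes had to pass the first sum, so the levels of its genes cannot show whether the classes are alike. Its 9 genes had a summed level of 34.6 against 36.5 in the female and 27.7 against 34.0 in the male library. Pmp22 stood at 23.3 against 34.6 per 10000 in female and at 22.6 against 36.7 in male nuclei, log2 ratios of -0.57 and -0.70, and Mbp had ratios of -0.07 and -0.19. Among nuclei of up to 2000 UMIs, Mbp had ratios of -0.02 (-0.30 to 0.24) and 0.16 (-0.17 to 0.48). Pmp22 stayed lower there, at -0.22 (-0.44 to -0.01) and -0.45 (-0.65 to -0.25).

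Of the 12 genes with the lowest ratio, few had many UMIs. Slit3, a guidance molecule of the same family as Slit2 (chromosome 11, 35121224 to 35708507, plus strand), gave 17 UMIs in the female members, 1.03 per 10000 against 4.05, and 19 in the male, 0.722 against 2.86; its log2 ratios were -1.94 (-2.77 to -1.29) and -1.95 (-2.73 to -1.32). Spp1, which encodes osteopontin (chromosome 5, 104435118 to 104441050, plus strand), gave 11 and 24 UMIs, 0.664 against 2.54 and 0.912 against 3.69. A330069K06Rik gave 23 and 28, 1.39 against 4.47 and 1.06 against 3.12. In nuclei of up to 2000 UMIs the log2 ratios were -0.98 (-2.10 to -0.09) and -1.49 (-2.67 to -0.57) for Slit3, -1.66 (-4.21 to -0.17) and -1.05 (-2.25 to -0.10) for Spp1 and -0.74 (-1.54 to -0.06) and -0.75 (-1.57 to -0.05) for A330069K06Rik. The differences of these 3 genes kept their direction at that depth and were smaller than over all depths.

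P3h2, a collagen prolyl hydroxylase gene, gave 5 and 3 UMIs in the members, 0.302 and 0.114 per 10000, against 1.43 and 1.45 in the Adamtsl1 and Erbb4 nuclei. Adamts9, a secreted protease gene, had 0 and 4 UMIs and Mthfd1l, a folate enzyme gene, 3 and 7. Among nuclei of up to 2000 UMIs, P3h2 had a log2 ratio of -0.59 (-3.20 to 1.08) in the female library, with 3 against 14 UMIs, and had 0 against 13 UMIs in the male. Adamts9 turned in the male library, from -1.63 over all depths to 0.39 (-1.90 to 2.30), with 4 against 7 UMIs. The others of the 12 were Pdzrn4, E2f3, Slc9a7, Sorbs2os, Eif2ak4 and Errfi1, each with 5 UMIs or fewer in the members of a library. Pdzrn4 had 0 UMIs in both and 15 and 16 in the Adamtsl1 and Erbb4 nuclei, and Sorbs2os had 0 in the female members against 10, counts that at the limit of 3 UMIs do not show either gene to be lower there. Prkca was called as well, at 11.1 and 7.98 per 10000 against 27.6 and 23.3. With 1 UMI or more in 76.4% of female and 70.3% of male members, against 37.2% and 30.5% of macrophage-like nuclei, it was low in the members and not at background. Of the other genes named above, Gfra1 stood at 9.73 and 5.74 against 17.5 and 13.1 and Mlip at 3.75 and 3.04 against 8.11 and 6.84, the latter called lower. Among nuclei of up to 2000 UMIs the log2 ratio of Mlip was -1.21 (-1.78 to -0.71) for the female and -0.65 (-1.18 to -0.17) for the male library, so that the male difference was under 2-fold there.

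The 12 highest genes rested on few nuclei. Slc4a10, a bicarbonate transporter, had the most UMIs among them, 59 in female and 34 in male members, but these lay in 9 and 12 nuclei, and a single nucleus gave 31 of the 59 and another 14 of the 34. Slc47a1, a transporter that marks barrier fibroblasts, had 27 UMIs in 9 female and 20 in 8 male members. Gm28376, a noncoding RNA antisense to Jph1 (chromosome 1, 16898185 to 17091631, plus strand), had 20 UMIs in 7 and 14 in 4 nuclei. Ror2, a Wnt receptor, had 16 UMIs in 5 female members, 12 of them in 1 nucleus. Pawr, Vstm5, Klhl32, Prg4, Lrrk1, Lpin2, Sncaip and Tcerg1l had 10 UMIs or fewer in each library. No gene of this set was a myelin gene. Among nuclei of up to 2000 UMIs, Gm28376 had 3 UMIs in the female members against 2 in the Adamtsl1 and Erbb4 nuclei, and 0 against 3 in the male library. Pawr had 4 against 2 and 0 against 1, so that a higher level in the male members was not detectable for either gene at that depth. Slc4a10 had log2 ratios of 1.90 (0.48 to 3.44) and 0.79 (-0.89 to 2.36) there. Slc47a1 had 6 against 4 and 10 against 3 UMIs, with log2 ratios of 1.996 (-0.03 to 4.32) and 2.72 (0.91 to 5.37). Only its male interval lay above 0, so that a higher level in the female members was not shown at that depth.

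**Figure D3:**
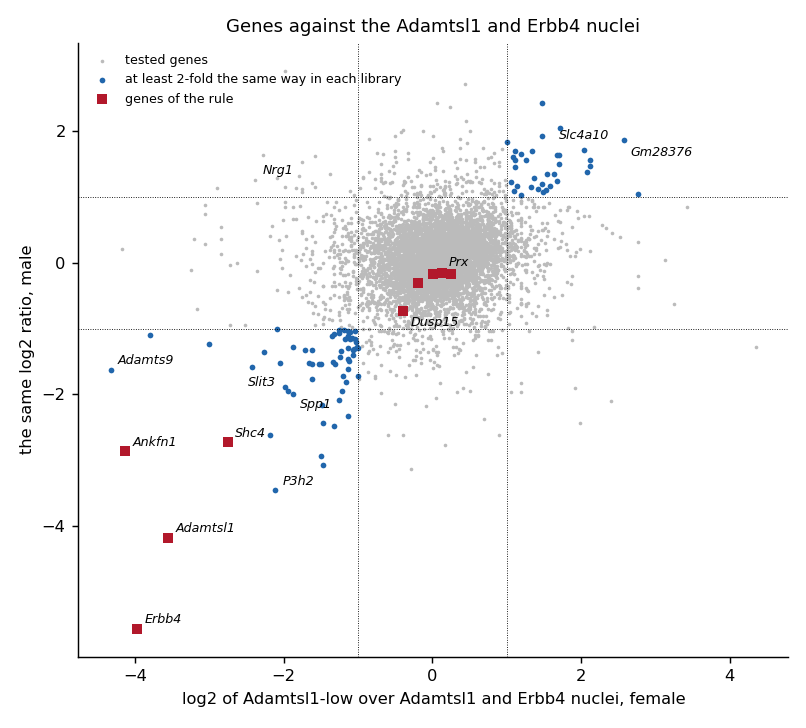
Each point is a tested gene, with its log2 ratio of UMIs per 10000 in the Adamtsl1-low over the Adamtsl1 and Erbb4 nuclei in the female library (horizontal) and in the male library (vertical); dotted lines mark 2-fold. The second-sum genes of the rule (red squares) lie at the lower left and 34 genes stand at the upper right. Slit3 and Spp1 lie near -2 on both axes. The first-sum genes (red squares near 0), on which both classes were chosen, do not reach 2-fold.

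Markers of other cell types were present in many of the Adamtsl1-low nuclei, so each list was counted with the limits of the first sum. At least 4 UMIs and 15 per 10000 of at least 1 other list occurred in 48 of 89 female and 66 of 118 male members. No such count is given for the other classes, so these shares are not shown to be particular to the members. Fibroblast genes reached these limits in 29 and 32 members, with summed levels of 21.0 and 14.1 per 10000 against 11.5 and 7.25 in the nuclei failing the first sum. Their most abundant gene was Dcn, which encodes decorin, a collagen-binding proteoglycan, with 131 and 132 UMIs in 50 and 52 members. Against the Adamtsl1 and Erbb4 nuclei Dcn had log2 ratios of 0.05 and 0.08, while Col1a1, a fibrillar collagen gene, was called lower in the members at -1.18 and -1.16, the 1 call among the 8 fibroblast genes tested. Of 11 fibroblast genes, Ccdc80 was at 0 in female and Scara5 in male members. Satellite glia genes reached the limits in 17 and 21 members, at 12.6 and 10.9 per 10000 against 13.3 and 11.3, and their most abundant gene in the male members was Fabp7, with 104 UMIs. Sensory neuron genes did so in 10 and 31 members, at 9.66 and 17.7 against 45.3 and 51.3, with none of 11 at 0. Macrophage genes reached the limits in 3 and 3 members, at 4.11 and 3.57 against 4.04 and 2.56, and Lyve1 had no UMI in either library. The limits were reached by endothelial genes in 3 and 2, mural genes in 5 and 7, barrier fibroblast genes in 6 and 2, cerebellar granule neuron genes in 4 and 2 and adipocyte genes in 0 and 0 members. Without the 48 and 66 members, 7 genes instead of 34 were higher than in the Adamtsl1 and Erbb4 nuclei, and 57 instead of 64 were lower. The class was then smaller and its number of tested genes is not given, so these counts cannot be read as shares. The part of free RNA or of nuclei sharing a droplet in these values was not tested.

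The share of neuronal RNA in these nuclei was measured with 18 abundant mRNAs of sensory neurons, among them Tubb3 (a neuronal tubulin), Uchl1, Sncg, Stmn2, the neurofilaments Nefl, Nefm and Nefh, and the neuropeptide precursors Calca and Tac1. Together they gave 969 UMIs in the female members, 58.5 per 10000 (54.9 to 62.3), and 2966 in the male, 113 (109 to 117). Every member held some of it, from 2 to 31 UMIs in the female library and from 9 to 98 in the male. Single female members ranged from 13.6 to 140 per 10000 with a median of 56.4, and male members from 56.5 to 238 with a median of 119. As UMIs per 10000 the members stood above the Adamtsl1 and Erbb4 nuclei (44.0 and 89.9), the endothelial-like nuclei (40.6 and 86.9) and the satellite glia-like nuclei (41.3 and 91.5). Macrophage-like nuclei held 41.1 and 109. Male neuron-like nuclei, which express these genes, held less per 10000 than the male members, 74.5, and female neuron-like nuclei held 57.4.

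Among nuclei of up to 2000 UMIs, the members held 62.6 neuronal UMIs per 10000 (57.4 to 68.1) in the female library, against 57.3 (54.3 to 60.4) in the Adamtsl1 and Erbb4 nuclei, 52.7 (48.7 to 56.9) in macrophage-like, 53.4 (49.6 to 57.4) in endothelial-like and 57.5 (54.0 to 61.2) in satellite glia-like nuclei. In the male library the members held 132 (125 to 139), against 123 (119 to 128) in the Adamtsl1 and Erbb4 nuclei, 129 (122 to 136) in macrophage-like, 127 (120 to 134) in endothelial-like nuclei and 113 (109 to 118) in those like satellite glia. The nuclei failing the first sum held 62.9 (61.8 to 64.1) and 125 (124 to 127) at that depth, and neuron-like nuclei, 13 female and 18 male, held 83.5 (71.5 to 96.9) and 130 (118 to 144). The intervals of the members overlapped those of the Adamtsl1 and Erbb4 nuclei and of the nuclei failing the first sum in each library. They also overlapped those of satellite glia-like nuclei in the female library, and of macrophage-like, endothelial-like and neuron-like nuclei in the male. Overlap does not show levels to be equal, and no intervals of the ratios are given at that depth. No order among these classes is therefore read. Depth was still not equal below that limit, with medians of 1469 UMIs in female and 1637 in male members and of 1640 and 1777 in the Adamtsl1 and Erbb4 nuclei. Counted per nucleus, the members held 9.14 and 21.3 neuronal UMIs and the Adamtsl1 and Erbb4 nuclei 9.14 and 21.2. Within the members, the shallower 45 female nuclei held 65.8 per 10000 and the deeper 44 held 54.4, and in the male library the shallower 59 held 134 and the deeper 59 held 100.9.

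**Figure D4:**
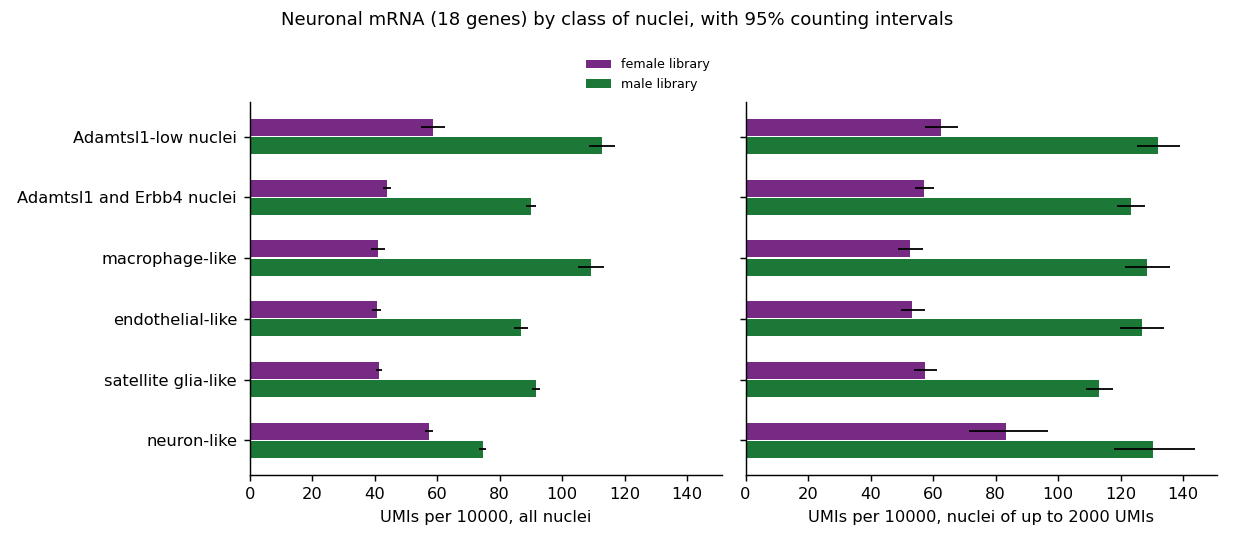
Bars give the summed UMIs of 18 neuronal mRNAs by class of nuclei in the female (purple) and male (green) library, per 10000 UMIs, in all nuclei (left) and in nuclei of up to 2000 UMIs (right); lines are exact 95% Poisson intervals. The bars of the Adamtsl1-low nuclei, 58.5 and 113 on the left, exceed those of the Adamtsl1 and Erbb4 nuclei, 44.0 and 89.9, and do so by less on the right, at 62.6 and 132 against 57.3 and 123, where the intervals overlap.

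Gene by gene, the ratios of neuronal RNA in the members to that in another class spread less against macrophage-like than against neuron-like nuclei. In the male library the ratio of members to macrophage-like nuclei ran from 0.779 for Fxyd7 to 1.20 for Gap43 over 18 genes, with a median of 1.08. In the female library it ran from 0.939 for Nefh to 1.71 for Tac1 over the 16 genes with at least 10 UMIs in each class, with a median of 1.41, near the ratio of the sums, 1.43 (1.31 to 1.55). Against endothelial-like nuclei the male ratios ran from 1.04 for Nefl to 1.98 for Tac1, a wider range than against macrophage-like nuclei. The female ratios ran from 0.957 to 1.82 against endothelial-like nuclei and from 1.06 to 1.69 against the Adamtsl1 and Erbb4 nuclei, the latter narrower than against macrophage-like nuclei. Against neuron-like nuclei the spread was wider, from 0.373 for Snap25 to 1.958 for Uchl1 in the female library and from 0.554 for Snap25 to 3.59 for Calca in the male. Tubb3 had a UMI in 70.8% of female and 94.9% of male members and in 62.0% and 92.4% of macrophage-like nuclei. After thinning to 1000 UMIs these shares were 48.9% and 72.9% in the members and 40.3% and 75.2% in the macrophage-like nuclei, so that the order differed between the libraries.

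**Figure D5:**
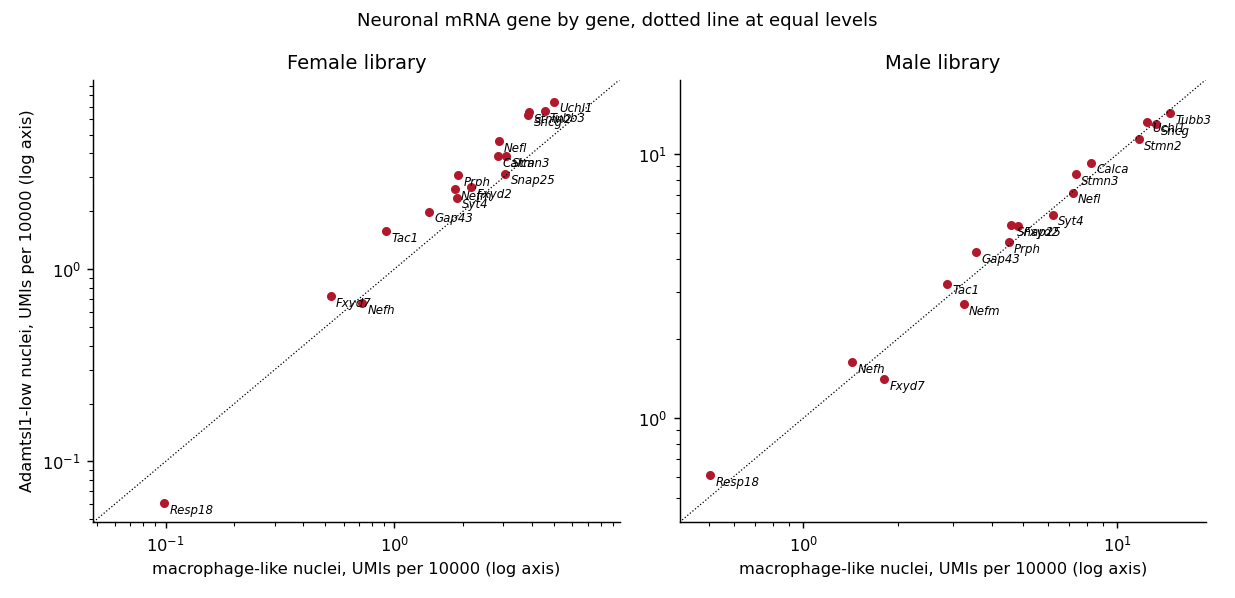
Each point is a neuronal mRNA (1 of the 18 is not drawn), with its level in macrophage-like nuclei (horizontal) and in Adamtsl1-low nuclei (vertical), in UMIs per 10000 on log axes; the dotted line marks equal levels. Male points follow the line from Resp18 to Tubb3, and most female points lie above it, with a median ratio of 1.41 over the 16 genes compared.

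Between the libraries, 48 of the 1942 genes with at least 50 UMIs over the members of both libraries were at least 2-fold higher in the female members (2.47%) and 98 in the male (5.05%). The leading female gene was Xist, followed by Fabp4, a fatty-acid binding protein of fat cells and endothelium, with 68 UMIs in female and 13 in male members, a log2 ratio of 3.01 (2.19 to 4.04). It was 3.05 in the Adamtsl1 and Erbb4 nuclei and 2.64 in the nuclei failing the first sum. Slc6a2, the noradrenaline transporter of sympathetic neurons, was higher in the male members, with 5 and 54 UMIs and a log2 ratio of -2.64, and the ratio was -2.70 and -2.69 in the other classes. For other genes the ratios in the other classes differed from that in the members. Nrg1 had -2.84 in the members, 0.80 in the Adamtsl1 and Erbb4 nuclei and 0.11 in the nuclei failing the first sum. Dpp6 had -2.05, 0.35 and 0.21 in the same order, Tshz2 -1.85, -0.06 and 0.12, and Gria3 1.65, -0.52 and -0.07.

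Several other male-higher genes had many of their UMIs in a single nucleus. The male member of 16344 UMIs, the deepest of all, held 106 UMIs of the sensory neuron list, 68 of them of Kcnb2, beside 121 of compact myelin genes. It gave 39 of 62 UMIs of Nrg1, 43 of 69 of Grm7, 50 of 88 of Tshz2 and 70 of 193 of Dpp6. Without it the log2 ratio of female over male members went from -1.93 to -0.63 (-1.83 to 0.40) for Grm7 and from -1.85 to -0.74 (-1.73 to 0.13) for Tshz2, intervals that include 0, from -2.84 to -1.52 (-3.38 to -0.20) for Nrg1 and from -2.05 to -1.49 (-2.15 to -0.92) for Dpp6. Ldha, Pfn2 and Cd24a, the remaining genes of the 8, had ratios of -1.90, -1.83 and -1.71, and of -1.94, -1.93 and -1.78 without that nucleus. On the female side Kcnd2, a potassium channel, had 77 UMIs in 16 of 89 members, 23 of them in 1 nucleus, and Fgf14 had 89 in 19, 25 of them in 1. Without these nuclei their log2 ratios were 2.03 and 1.10 instead of 2.52 and 1.55. Slc4a10 had a log2 ratio of 1.45, and of 0.43 (-0.35 to 1.19) without the nucleus that gave 31 of its 59 female UMIs. Gria3 and Tra2a had ratios of 1.65 and 1.47.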

How the data were processed

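Single-nucleus RNA of vagus nerve ganglia was counted in 1 female and 1 male library with a 10x Genomics 3' kit. The deposited counts are whole UMI counts per gene and nucleus. The authors made them with Cell Ranger 7.1.0 on mm10 with an added transgene, intronic reads included, removed debris with DIEM and joined the libraries with depth normalization; they state that doublets were removed, and no caller was run here. The table pools both libraries. Barcode suffixes were matched to the sexes because their numbers of nuclei equal those the study states per sex, and sex-linked genes were counted as a check.

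UMIs were summed per class and library and given per 10000 with exact 95% Poisson intervals, ratios with exact conditional intervals, and shares with Clopper-Pearson intervals (Python 3.11.15, NumPy 2.4.6, SciPy 1.17.1, pandas 2.3.3); the female library holds 17435300 UMIs and the male 27529730. A gene was tested for size of change with at least 5 expected UMIs in the members of each library, and called at 2-fold or more the same way in both, with 0.5 UMIs added to both sums. Sums weight deep nuclei most.

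Comparison classes needed at least 6 UMIs and 30 per 10000 of their markers (neuron-like 20 and 100) among nuclei failing the first sum, limits set after the data were seen; 42 nuclei meeting 2 classes were dropped. Named genes are the 14 of the rule, the 20 highest and 10 lowest against the nuclei failing the first sum, the 12 highest and 12 lowest against the Adamtsl1 and Erbb4 nuclei, the 8 highest and 8 lowest between the libraries, and each list's called, most abundant and defining genes. Some genes that this names are not reported here. Members, lists and tests were chosen with earlier results of these data known. Of the listed symbols, 2 (Aldoa and Drgx) were not matched.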

Additional observations from a re-analysis of the deposited data

Results flagged for a closer look

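Nrg1, which encodes neuregulin 1, moved in opposite directions in the libraries when the Adamtsl1-low nuclei were set against the Adamtsl1 and Erbb4 nuclei. In the female library it gave 5 UMIs in the members and 195 in the others, a log2 ratio of -2.38 (-4.15 to -1.27). In the male library it gave 62 and 140, a ratio of 1.25 (0.79 to 1.69). Of the 62 UMIs, 39 lay in the deepest male member, and without it the ratio was -0.06 (-0.79 to 0.55). The difference between the libraries was not tested, since each sex had 1 library.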

How the results depend on the processing

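Of 93 values recomputed under alternatives, 45 stayed within their limits, 48 moved and 0 reversed. The female share of members, 2.35%, became 1.27% with a second sum of 0, 1.87% with at most 5 per 10000, 1.002% with a first sum of at least 6 UMIs and 25 per 10000, 1.29% over 2000 UMIs, 4.04% up to 2000 UMIs and 1.08% without members holding other markers; the male share, 2.40%, became 0.955%, 1.83%, 0.934%, 1.498%, 4.41% and 1.06%. Neuronal mRNA in female members, 58.5 per 10000, was 63.9 with a second sum of 0, 54.1 over 2000 UMIs, 62.6 up to 2000 and 53.5 after thinning. In male members, 113, it was 93.8 with at most 5 per 10000, 117 with the stricter first sum, 99.3 over 2000 UMIs, 132 up to 2000, 103 after thinning, 129 without other markers and 122 as a mean over nuclei. Genes higher than in the nuclei failing the first sum, 298, numbered 174 with a second sum of 0, 173 with the stricter first sum, 192 over 2000 UMIs, 139 up to 2000, 173 without other markers, 185 with at least 10 expected UMIs and 2053 without this filter; genes lower, 585, numbered 327 over and 293 up to 2000 UMIs. Genes higher than in the Adamtsl1 and Erbb4 nuclei, 34, numbered 15 with a second sum of 0, 134 with at most 5 per 10000, 186 after thinning, 7 without other markers, 55 as a mean over nuclei, 14 with at least 10 expected UMIs and 1499 without the filter; genes lower, 64, numbered 30 with a second sum of 0, 28 with the stricter first sum, 32 over 2000 UMIs, 36 up to 2000, 24 with at least 10 expected and 148 without the filter. Beside the 134 and 186 higher genes stood 61 and 45 lower ones, and beside the 28 and 32 lower genes stood 44 and 44 higher ones, against 34 and 64 in the report. The causes were not tested, and the numbers of genes tested under each alternative are not given. The settings of nuclei up to 2000 UMIs and without the deepest male member were chosen after seeing the data, as was leaving out the female nucleus with most UMIs of a gene; the setting without the deepest male member left these counts at 318, 627, 28 and 61. No paired analysis was possible because each sex had 1 library and no test was run. A gene with 0 UMIs could have reached 0.181 per 10000 in the female and 0.114 in the male members.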
